A study of Rattus norvegicus with 6 samples.

Results

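The Notch pathway in cultured rat Schwann cells was followed through 10 genes, the receptors Notch1, Notch2 and Notch3, the ligands Jag1, Jag2 and Dll1, the nuclear effector Rbpj, and the target genes Hes1, Hey1 and Hey2. Every probe set annotated with one of these symbols was taken, which gave 13 of the 31042 probe sets tested, for 10 of 14217 genes. Of these, 3 measured Rbpj, 2 measured Notch1 and each other gene had 1. The rule for taking probe sets used no measured value, and no probe set was removed for a low signal. The genes themselves were chosen with earlier results of these data known. Messenger RNA was measured on 6 Affymetrix arrays of primary Schwann cells from rat sciatic nerve carrying an inducible RafER allele, in which Raf kinase is joined to the estrogen receptor's hormone-binding portion. The labels do not say how this allele came into the cells. On a coating of poly-L-lysine and fibronectin the cells were moved to a minimal medium, and then received tamoxifen for 24 h (3 arrays) or the ethanol vehicle (3 arrays), in 3 experiments that the design text calls independent. The sample source labels speak of treated rats, but by the series' design text the drug was added to cultures, and this was followed. Both groups carried RafER. Cells lacking RafER were not analysed here, and so Raf activity and tamoxifen as a drug cannot be told apart. The p-values measure the spread between these arrays.

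Notch receptors are cell surface proteins that are activated by Delta and Jagged ligands on a neighbouring cell. Ligand binding exposes the receptor to ADAM proteases and then to gamma-secretase, and the released intracellular domain enters the nucleus, binds the DNA-binding protein RBPJ and turns a repressor complex into an activator. Classic targets are the Hes and Hey genes, which encode basic helix-loop-helix repressors, and Nrarp, which feeds back on the pathway. In developing nerve, Notch signalling is known to promote the immature Schwann cell state and to oppose myelination. Raf activates the ERK pathway, and the question put to the arrays, per the series title, is what Raf activation does to the expression profile.

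The promoters of Hes1, Hey2, Dll1 and Jag1 are shown because the first 3 hold the letters GTGGGAA, the core that RBPJ recognises, on one strand or the other, while Hes1 and Jag1 were the 2 members with the largest rises. RefSeq promoters (build GRCr8) were found for 9 of the 10 members. Each line gives the 250 bases before the annotated start, 5′ to 3′ on the strand of the gene, and capitals mark TGGGAA or its reverse complement. 
Hes1 (chr11:84213046-84213295, minus strand): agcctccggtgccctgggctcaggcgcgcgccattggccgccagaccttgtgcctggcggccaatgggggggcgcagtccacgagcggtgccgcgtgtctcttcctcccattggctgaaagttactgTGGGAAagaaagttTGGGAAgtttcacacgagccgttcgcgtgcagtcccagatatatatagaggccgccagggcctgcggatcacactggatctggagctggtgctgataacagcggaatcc
Hey2 (chr1:28640850-28641099, plus strand): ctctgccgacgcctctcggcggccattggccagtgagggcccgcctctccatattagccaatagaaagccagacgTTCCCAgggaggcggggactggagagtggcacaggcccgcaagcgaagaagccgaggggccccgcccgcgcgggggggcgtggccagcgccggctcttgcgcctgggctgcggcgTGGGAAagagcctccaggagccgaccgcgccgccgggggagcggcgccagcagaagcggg
Dll1 (chr1:64993275-64993524, minus strand): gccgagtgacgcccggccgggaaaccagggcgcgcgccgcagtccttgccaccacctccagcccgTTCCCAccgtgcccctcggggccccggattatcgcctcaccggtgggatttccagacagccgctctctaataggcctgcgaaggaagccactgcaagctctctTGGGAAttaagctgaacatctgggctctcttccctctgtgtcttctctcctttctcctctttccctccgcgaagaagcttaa
Jag1 (chr3:144894884-144895133, minus strand): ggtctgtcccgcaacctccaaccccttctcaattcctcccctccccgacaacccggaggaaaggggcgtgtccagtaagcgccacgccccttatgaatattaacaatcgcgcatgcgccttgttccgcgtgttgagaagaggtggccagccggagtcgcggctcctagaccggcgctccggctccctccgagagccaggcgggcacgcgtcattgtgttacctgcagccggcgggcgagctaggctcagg

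In Hes1 the pair of TGGGAA runs begins 123 and 109 bases before the start, both on the gene's own strand, and the first is preceded by a G to give GTGGGAA. The Hey2 window holds GTGGGAA from 61 bases before the start, and the Dll1 window holds it on the opposite strand, 185 to 179 bases before the start. The Jag1 window holds neither these letters nor TGGGAA. Among all 33469 promoter windows of this length, 5.27% hold GTGGGAA and 22.1% hold the shorter TGGGAA, which lies inside it. The N box CACNAG, to which Hes proteins bind, has 4 matches in the Hes1 window, 4 in that of Notch1 and 1 in that of Notch3, while 37.2% of all windows hold at least 1 on either strand. These matches are descriptions of letters in the windows.

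Tamoxifen-treated cells had more Hes1, Jag1 and Rbpj transcript and less Notch1 transcript. Of the 13 probe sets, 5 were higher and 2 were lower at an adjusted p of 0.05 in limma's moderated test (Benjamini-Hochberg over all probe sets), against 11.5% higher and 12.9% lower among all probe sets (24.4% in either direction). These 7 probe sets belong to 4 genes, and the probe sets of Jag2, Dll1, Notch2, Notch3, Hey1 and Hey2 did not pass. By gene, 4 of 10 passed (3 higher, 1 lower). Among 14217 genes counted by 1 probe set each, 31.2% passed (13.9% higher, 17.3% lower). The tamoxifen and vehicle values did not overlap for 8 of the 13, against 42.4% of all probe sets. The median change was 0.15 log2 units over the 13 probe sets and 0.03 over all of them. In a bulk culture, a change in the share of cells that make a transcript and a change in transcript per cell cannot be told apart.

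**Figure D1:**
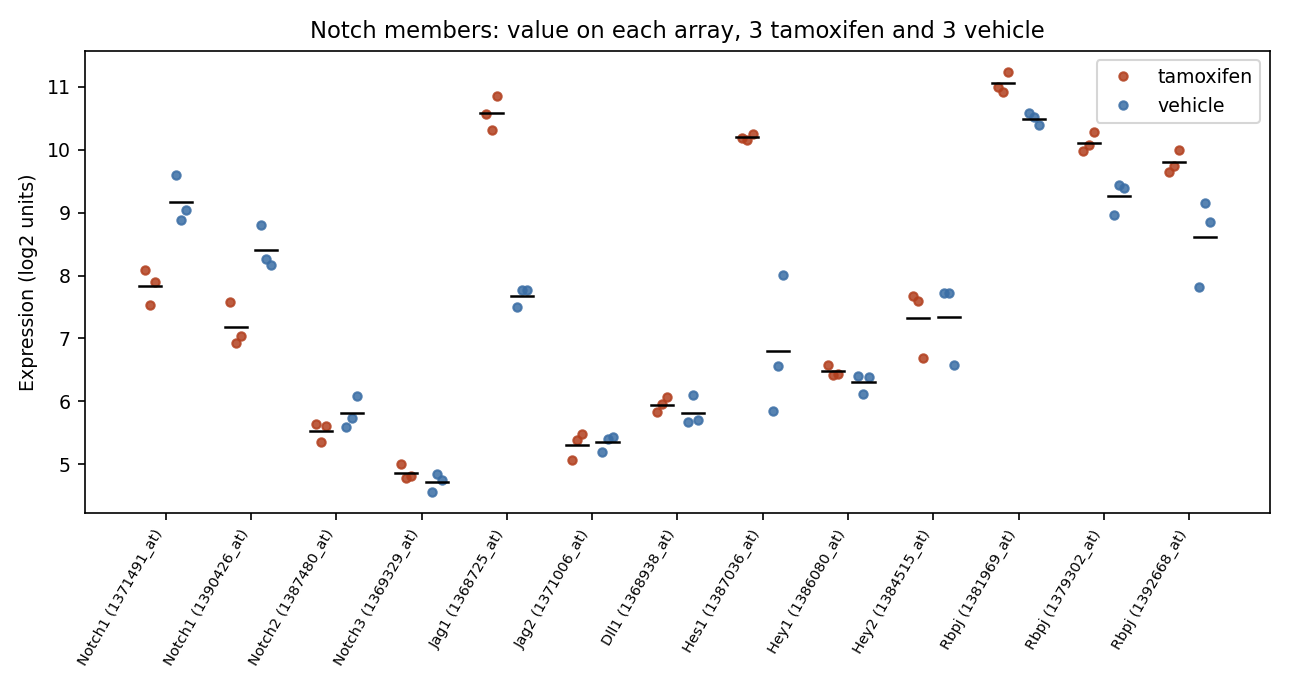
Expression (log2 units, vertical axis) of the 13 probe sets on each array, with 3 tamoxifen arrays in red left of 3 vehicle arrays in blue and the group mean as a black bar. Jag1 and Hes1 sit above 10 on every tamoxifen array, while the vehicle values reach at most 7.77 for Jag1 and 8.00 for Hes1.

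Among the ligands, which are presented by one cell to the receptor of the next, Jag1 (1368725_at) had log2 values of 10.57, 10.31 and 10.85 on the tamoxifen arrays, against 7.50, 7.77 and 7.77 on the vehicle arrays. The lowest tamoxifen value lay far above the highest vehicle value. The mean was 10.58 ± 0.27 with tamoxifen and 7.68 ± 0.16 with vehicle (SD, n = 3 arrays each), a rise of 2.89 ± 0.16 log2 units (SE) or 7.43-fold (limma, adjusted p = 0.000176). Jag2 (1371006_at), the second Jagged ligand, had values of 5.07, 5.38 and 5.48 with tamoxifen, against 5.20, 5.41 and 5.44 with vehicle. Its groups overlapped, and the difference was -0.04 with a 95% interval of -0.36 to 0.28. Dll1 (1368938_at), a Delta-like ligand, gave 5.83, 5.96 and 6.07 with tamoxifen and 5.67, 6.09 and 5.70 with vehicle. The vehicle array of experiment 2 was the highest of the 6, and the difference of 0.13 had a 95% interval of -0.20 to 0.46.

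Notch1, the only one of the 3 receptor genes to pass the test, was lower after tamoxifen by both of its probe sets. The brighter one (1371491_at) had values of 8.09, 7.54 and 7.89 on the tamoxifen arrays, against 9.60, 8.88 and 9.05 on the vehicle arrays. It fell by 1.33 ± 0.22 log2 units, a 2.52-fold difference (limma, adjusted p = 0.00674). The second probe set (1390426_at) had values of 7.58, 6.92 and 7.04 with tamoxifen and 8.81, 8.26 and 8.17 with vehicle. It fell by 1.23 ± 0.23 (adjusted p = 0.0103), and in neither probe set did the groups overlap. In both probe sets the arrays of experiment 1 were the highest of their group, and the drop within an experiment lay between -1.51 and -1.13.

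The other receptors did not pass. Notch2 (1387480_at) had 5.64, 5.35 and 5.61 with tamoxifen, against 5.60, 5.74 and 6.09 with vehicle, so the groups overlapped through the vehicle array of experiment 1. The difference was -0.28 with a 95% interval of -0.64 to 0.08 (adjusted p = 0.248). Notch3 (1369329_at), a receptor known from mural cells of blood vessels, had values of 4.998, 4.79 and 4.82 with tamoxifen and 4.56, 4.85 and 4.76 with vehicle. Its difference of 0.15 had a 95% interval of -0.12 to 0.41. The mean over the 6 arrays stood at the percentile 24.3 of all probe sets, and without detection calls such a value can be background. None of the 10 smooth muscle and pericyte markers passed limma's test (2 had an unadjusted p under 0.05), against 31.2% of all genes. But with the experiment as a block in limma, Pdgfrb was lower (adjusted p = 0.00209) and Cspg4 higher (0.0457). The mean log2 level of the 10 was 5.67 to 6.07 on tamoxifen arrays and 5.71 to 6.14 on vehicle arrays. The receptor gene Pdgfrb had 6.29, 6.10 and 7.81 with tamoxifen, against 7.27, 7.24 and 9.005 with vehicle, with the arrays of experiment 3 highest in both groups. The defining smooth muscle marker Myh11 stood at 5.62 to 5.98 with tamoxifen and 5.62 to 5.77 with vehicle.

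Rbpj, the DNA-binding protein through which the cleaved receptors act, was higher by all 3 of its probe sets. The brightest (1381969_at) had values of 11.00, 10.92 and 11.23 with tamoxifen, against 10.58, 10.51 and 10.39 with vehicle, a rise of 0.56 ± 0.11 (limma, adjusted p = 0.0135). The second (1379302_at) had 9.98, 10.08 and 10.27 with tamoxifen, against 8.97, 9.44 and 9.40 with vehicle, a rise of 0.84 ± 0.15 (adjusted p = 0.00922). For the dimmest (1392668_at) the values were 9.65, 9.75 and 9.9996 with tamoxifen and 7.82, 9.15 and 8.86 with vehicle. The groups did not overlap in any of the 3, and the vehicle array of experiment 1 was the lowest of the 6 in the second and the dimmest probe set. The dimmest probe set rose by 1.19 ± 0.33 (adjusted p = 0.0409), but did not pass when vehicle array 3 was left out (adjusted p = 0.0632), nor without tamoxifen array 1 (0.0835), array 2 (0.106) or array 3 (0.127). That vehicle array of experiment 1 also stood apart in its control probes: the 3′ signal exceeded the 5′ signal by 0.84 log2 units on average, against 0.16 to 0.27 on every other array. Without it the rise of the dimmest probe set was 0.80 (adjusted p = 0.0146).

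Hes1, a repressor and the best known target of RBPJ and Notch, had the largest change of the 10 genes. Its probe set (1387036_at) gave 10.19, 10.16 and 10.25 on the tamoxifen arrays, against 5.84, 6.57 and 8.00 on the vehicle arrays. The tamoxifen values lay within a narrow band while the vehicle values spread widely, with experiment 1 lowest and experiment 3 highest. The means were 10.20 ± 0.04 with tamoxifen and 6.80 ± 1.10 with vehicle (SD, n = 3 each), a rise of 3.39 ± 0.50 log2 units or 10.5-fold (limma, adjusted p = 0.00427). Within experiments the rise was 4.34, 3.59 and 2.24. It was 3.99 without vehicle array 3 and 2.91 without vehicle array 1, and passed in both.

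**Figure D2:**
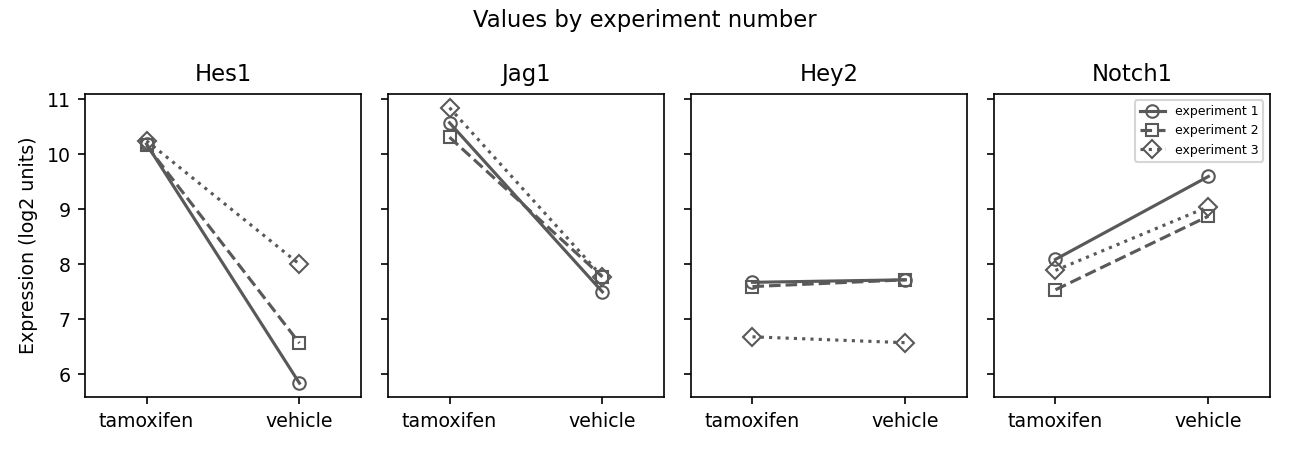
Expression (log2 units, vertical axis) of Hes1, Jag1, Hey2 and the brighter Notch1 probe set, with tamoxifen left of vehicle and a line joining arrays with the same experiment number. Hes1 lines meet near 10.2 with tamoxifen and fan out between 5.84 and 8.00 with vehicle, and both Hey2 values of experiment 3 lie below those of experiments 1 and 2.

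Hey1 and Hey2 encode related repressors that, like Hes1, are known Notch targets. Hey1 (1386080_at) had values of 6.57, 6.42 and 6.44 with tamoxifen, against 6.41, 6.11 and 6.39 with vehicle. The groups did not overlap, but the difference of 0.17 did not pass (adjusted p = 0.319, 95% interval -0.09 to 0.44). Hey2 (1384515_at) had 7.67, 7.60 and 6.68 with tamoxifen and 7.72, 7.72 and 6.58 with vehicle. In both groups the array of experiment 3 was the lowest, by about as much in each, and the differences within experiments were -0.05, -0.12 and 0.11. The mean difference was -0.02 with a 95% interval of -0.95 to 0.91, and with the experiment as a block its adjusted p was 0.907. On the arrays of experiment 3 the smooth muscle marker Tagln was higher, with 8.42, 8.50 and 9.98 with tamoxifen, against 8.75, 8.84 and 10.94 with vehicle. Pdgfrb, Des and Abcc9 were likewise highest on the arrays of experiment 3 in both groups, while Acta2, Myh11, Cnn1, Kcnj8, Cspg4 and Rgs5 were not. For Abcc9 the vehicle values were 4.293, 4.299 and 4.303, so its rank among them rests on very small differences. Acta2 had 7.57, 7.59 and 7.41 with tamoxifen, against 7.38, 7.68 and 7.52 with vehicle. The part of these markers in the Hey2 and Hes1 values was not tested.

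**Figure D3:**
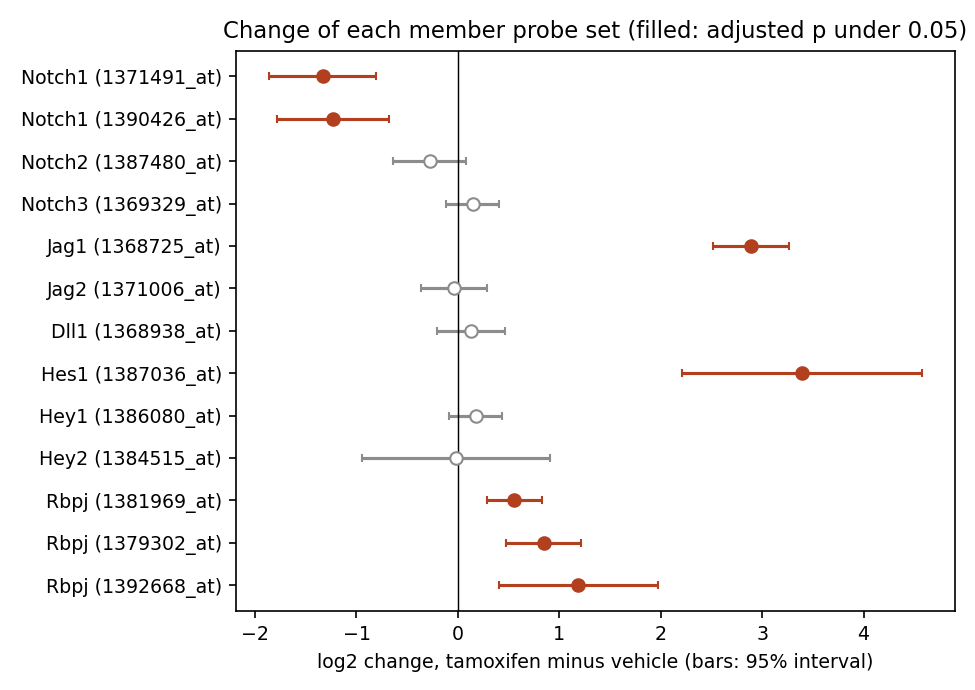
Change of each of the 13 probe sets (log2 units, tamoxifen minus vehicle, horizontal axis) with its 95% interval, filled in red where the adjusted p was under 0.05. Hes1 and Jag1 lie at 3.39 and 2.89, the Rbpj probe sets between 0.56 and 1.19, the Notch1 probe sets at -1.33 and -1.23, and the other 6 intervals include 0.

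The 3 genes whose centred profile over the 6 arrays lay closest to that of Hes1 were Alcam, an immunoglobulin family adhesion molecule, Hbegf, a ligand of the EGF receptor, and Hmga2, a chromatin protein. Their root mean square differences from Hes1 were 0.23, 0.32 and 0.44 log2 units. Alcam had 12.63, 12.46 and 12.60 with tamoxifen, against 8.32, 8.38 and 10.12 with vehicle. A high vehicle value in experiment 3 is shared with Hes1 by the way these genes were chosen. As a check of the treatment, Dusp6, a phosphatase gene that ERK is known to induce, was measured, and its brightest probe set had 13.42, 13.30 and 13.39 with tamoxifen and 8.88, 8.82 and 8.83 with vehicle.

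The rest of the pathway was described with 7 lists, of which 56 of 67 genes were measured, each by its probe set of highest mean value. Of these 56 genes, 7 rose and 13 fell, against 13.9% higher and 17.3% lower among 14217 genes. This is 12.5% higher and 23.2% lower of the 56 genes (31.2% of all genes passed in either direction). Their median change was -0.11, against 0.01 over all genes. The lists are taken in turn by what their members do.

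**Figure D4:**
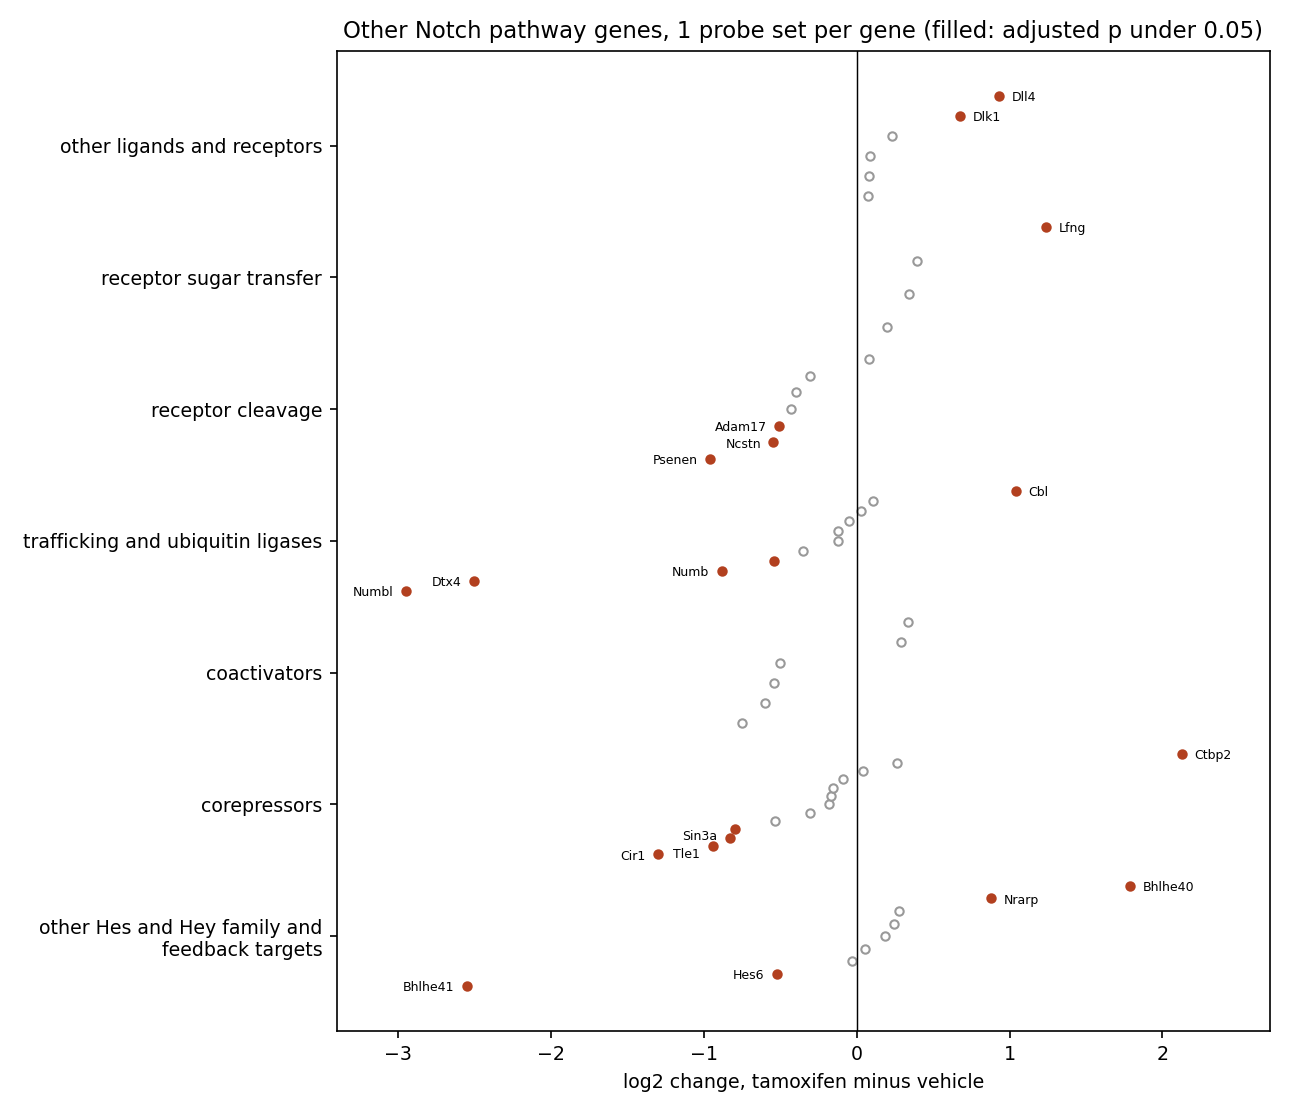
Change of the 56 other Notch pathway genes (log2 units, tamoxifen minus vehicle, horizontal axis) in 7 lists down the page, 1 point per gene, filled in red where the adjusted p was under 0.05. Numbl at -2.95 and Ctbp2 at 2.13 mark the ends of the range, no coactivator passed, and all 3 receptor cleavage genes that passed lie below 0.

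Of 6 other ligands and receptors, 2 rose and none fell. The ligand gene Dll4, best known from endothelial cells, had values of 7.54, 7.71 and 7.55 with tamoxifen, against 6.48, 6.74 and 6.79 with vehicle. It rose by 0.93 ± 0.11 (limma, adjusted p = 0.0023), and by 1.10 in its other probe set. Of 9 measured endothelial markers none rose and 1 fell, against 13.9% higher and 17.3% lower among all genes. The mean log2 level of the 9 was 5.12 to 5.24 on tamoxifen arrays and 5.16 to 5.22 on vehicle arrays. The defining marker Pecam1 had 4.31, 4.21 and 4.30 with tamoxifen and 4.21, 4.37 and 4.40 with vehicle. Dlk1, a Delta-like protein without the receptor-binding part of the classic ligands, rose by 0.68 ± 0.12. The receptor gene Notch4 differed by 0.08 ± 0.14 and did not pass by any of its 3 probe sets.

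Next come the genes whose proteins modify or cut the receptor. Of 4 measured sugar transferases 1 rose (2 with the experiment as a block). Rfng did not pass by its brighter probe set (0.34, adjusted p = 0.104 in limma), but its second rose by 0.52 (adjusted p = 0.0148). Lfng, the Fringe enzyme that alters which ligands a Notch receptor answers to, had 8.82, 8.78 and 8.43 with tamoxifen, against 7.35, 7.78 and 7.18 with vehicle (a rise of 1.24 ± 0.18, adjusted p = 0.0043 in limma). Of 7 measured cleavage genes 3 fell and none rose, with a median of -0.43, while 17.3% of all genes were lower and 13.9% higher. Psenen and Ncstn encode subunits of gamma-secretase, the protease that releases the intracellular domain. Psenen fell by 0.96 ± 0.20, with 10.47, 10.46 and 9.77 with tamoxifen and 11.21, 11.27 and 11.11 with vehicle. The brighter probe set of Ncstn fell by 0.54 ± 0.08, and the second gave -0.30 (adjusted p = 0.388). Adam17, a protease that can make the first cut, fell by 0.51 ± 0.09. For Adam10, the main protease of that step, the brighter probe set gave -0.40 ± 0.27 and did not pass, and the second gave 0.14 (adjusted p = 0.898). Without vehicle array 1, the array with the larger 3′ minus 5′ difference, the brighter probe set differed by -0.68 (adjusted p = 0.0419), and without both arrays numbered 1 by -0.79 (0.0427). On that vehicle array Adam10 had 9.34, below 10.36 and 10.03 on the other vehicle arrays.

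Regulators of receptor trafficking included Numbl, which had the largest drop of the 56 genes. Of 11 measured genes 1 rose and 4 fell. Nedd4 did not pass by its brightest probe set (-0.12), but 1 of its other probe sets fell by 0.38 (limma, adjusted p = 0.0240). Numbl, a relative of the Notch inhibitor Numb, had values of 7.98, 8.08 and 7.02 with tamoxifen, against 10.56, 10.56 and 10.80 with vehicle. It fell by 2.95 ± 0.28 (limma, adjusted p = 0.00103). Numb itself fell by 0.88 ± 0.19 by its brighter probe set, but it no longer passed when tamoxifen array 1 (adjusted p = 0.0553), tamoxifen array 2 (0.0674) or both arrays numbered 1 (0.0640) were left out. The other probe set gave -0.50 (adjusted p = 0.240). The Deltex ubiquitin ligase gene Dtx4 fell by 2.50 ± 0.20, and its second probe set gave -2.10 (adjusted p = 0.00837), while the third, at 3.43 to 3.65 on all arrays, gave -0.05. The ubiquitin ligase gene Cbl, also a regulator of receptor tyrosine kinases, rose by 1.04 ± 0.17 and was higher by all 4 of its probe sets.

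In the nucleus, none of 6 measured coactivators passed in limma, although 4 had an unadjusted p under 0.05, all lower. That count takes the probe set of highest mean for each gene. Maml2, another Mastermind gene, gave 0.34 by that probe set (adjusted p = 0.194) while 2 dimmer probe sets were higher, by 0.49 (adjusted p = 0.0444) and 0.33 (0.0442). With the experiment as a block 1 of the 6 was higher and 3 were lower. Maml1, a Mastermind protein that joins the complex of RBPJ and the intracellular domain, was one of the 3 (-0.54 ± 0.19, adjusted p = 0.0895 without and 0.0133 with the block), and it also passed without both arrays numbered 1 (0.0362). Of 13 measured corepressors 1 rose and 4 fell. Hdac1 did not pass by its brighter probe set (-0.53, adjusted p = 0.126), but its second fell by 0.76 (adjusted p = 0.00167). Ctbp2, a corepressor of many transcription factors, had values of 11.81, 11.84 and 12.30 with tamoxifen, against 10.08, 9.66 and 9.83 with vehicle, a rise of 2.13 ± 0.17 (adjusted p = 0.000641 in limma). Cir1, which links RBPJ to histone deacetylases, fell by 1.30 ± 0.18, and by 1.11 in its other probe set. The Groucho family gene Tle1, whose protein is recruited by Hes factors, fell by 0.94 ± 0.23, and Sin3a, a scaffold of deacetylase complexes, fell by 0.83 ± 0.19. Tle1 did not pass when tamoxifen array 2 (adjusted p = 0.0811) or 3 (0.0796) was left out, nor without the first (0.0588) or the second (0.0783) vehicle array. Sin3a did not pass when tamoxifen array 2 (0.0819) or tamoxifen array 3 (0.0775) was left out. The other probe sets of Sin3a, at -0.40 and -0.06, did not pass.

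Among 9 measured genes of the wider Hes and Hey family and of feedback, 2 rose and 2 fell. Nrarp, a feedback inhibitor induced by Notch, had values of 6.83, 7.05 and 7.35 with tamoxifen, against 6.43, 5.99 and 6.18 with vehicle. It rose by 0.88 ± 0.17 (limma, adjusted p = 0.0116), and by 1.12 and 0.36 in its other probe sets. The probe set with the rise of 0.36 stood at 3.62 to 4.12 on all arrays, and without detection calls such values can be background. Hes5 and Heyl, which are also known Notch targets, did not pass, with differences of 0.19 ± 0.10 and 0.28 ± 0.13 by their brightest probe sets. Hes6, which is known to oppose Hes1, fell by 0.52 ± 0.08. The related bHLH repressors, which also act in the circadian clock, went opposite ways. Bhlhe41 had 9.92, 9.90 and 9.16 with tamoxifen, against 12.54, 12.05 and 12.04 with vehicle, and fell by 2.55 ± 0.24 (adjusted p = 0.00109). Bhlhe40 had 5.67, 6.07 and 7.46 with tamoxifen and 4.41, 4.49 and 4.93 with vehicle, values that without detection calls can be background. It rose by 1.79 ± 0.44 but did not pass when tamoxifen array 2 was left out (adjusted p = 0.0613), nor without the first (0.0644) or the second (0.0789) vehicle array.

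The labelled cell type was checked with 12 Schwann cell markers, of which 8 were measured. Of the 8, 2 rose and 2 fell, against 13.9% higher and 17.3% lower among all genes. Egr2, a transcription factor of myelination, had 9.69, 10.12 and 10.18 with tamoxifen, against 5.77, 6.01 and 5.86 with vehicle, a rise of 4.12 ± 0.15 (limma, adjusted p = 4.3e-05). Pou3f1, a factor of promyelinating cells, had 9.85, 9.76 and 9.95 with tamoxifen, against 8.84, 7.68 and 8.09 with vehicle, and rose by 1.65 ± 0.28. The neurotrophin receptor gene Ngfr had 11.96, 11.49 and 10.94 with tamoxifen, against 13.55, 12.71 and 12.70 with vehicle, and fell by 1.53 ± 0.32. In all 3 genes the groups did not overlap. The lineage marker S100b also fell (-0.76, adjusted p = 0.0459). Sox10, a lineage factor, gave -0.90 (adjusted p = 0.104, or 0.0300 with the experiment as a block), and Erbb3, the neuregulin receptor gene, gave -0.06. These markers moved beside the Notch genes, and their part in the Notch results was not tested.

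The mean log2 level of the 12 macrophage markers was 4.93 to 4.98 with tamoxifen and 4.89 to 4.94 with vehicle, and none passed in limma (2 at an unadjusted p under 0.05). Of 9 fibroblast markers 2 rose and 3 fell, against 13.9% higher and 17.3% lower among all genes. The mean log2 level of the 9 was 7.82 to 7.94 with tamoxifen and 7.96 to 8.07 with vehicle. Among them the collagen gene Col3a1 had 6.45, 5.81 and 6.64 with tamoxifen, against 8.24, 7.88 and 9.91 with vehicle (-2.38, adjusted p = 0.0185), and was highest on the vehicle array of experiment 3, as was Hes1 among the vehicle arrays. Col1a1 gave -1.23 (adjusted p = 0.00427), and Fbln1, which encodes a matrix glycoprotein, gave 1.61 (adjusted p = 0.000751). The markers differed on the vehicle array of experiment 3. Col1a2 and Thy1 were also highest on it among the vehicle arrays, but Postn, Fbln1, Pdgfra, Dcn and Lum were lowest on it. Col1a1 was highest on the vehicle array of experiment 1. The markers differed in level. Dcn and Lum stood at 4.24 to 4.28 and 3.34 to 3.51 with tamoxifen, against 4.01 to 4.08 and 3.32 to 3.54 with vehicle. Mean values were 13.58 with tamoxifen and 13.19 with vehicle for Postn, 12.80 and 13.26 for Col1a2, and 11.92 and 13.15 for Col1a1. Col3a1, Fbln1, Pdgfra and Thy1 lay between these and the dim Dcn and Lum. The part of the fibroblast markers in the Notch results was not tested. Arrays of the same group correlated at 0.984 to 0.995 over probe sets and arrays of different groups at 0.934 to 0.966.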

How the data were processed

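The authors deposited log2 expression values per probe set, made with RMA per the submitters' processing notes (version not given in the sources used here). RMA subtracts background, brings arrays to a common distribution and condenses each probe set to 1 value, and changes of dim genes come out too small. The file holds no detection calls, and the number of arrays limits the precision. Of 31099 rows, 57 control probe sets were left out. Symbols came from the platform annotation: 20826 probe sets had 1 symbol, 436 had several and were not named, and 9780 were not listed with a gene. Of the 13 member probe sets, 0 have a suffix that marks possible cross-hybridisation.

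Groups were taken from the sample titles. The difference tamoxifen minus vehicle was tested two-sided with limma 3.58.1 (lmFit, eBayes; R 4.3.3) using all 6 arrays and no covariate. P-values of the 31042 probe sets were adjusted by Benjamini-Hochberg, with 0.05 as threshold, and errors of changes are the moderated SE. The procedure was tested on simulated data. Members and lists were chosen with earlier results of these data known. Named genes are all members, from each list up to 4 genes that passed and changed most, a set of fixed genes, and the 3 genes closest to the member of largest change. Members of the lists without such a probe set were not analysed here.

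After subtraction of group means, arrays with the same experiment number in their titles correlated at 0.26, 0.20 and 0.28 over probe sets. As each exceeded 0.1, the numbers were taken to pair the arrays, and a fit blocked on experiment was run as an alternative. The labels do not say that a number marks a shared culture or day, so the main fit has no block. Errors, intervals and calls come from that main fit unless the block is named. The other alternatives were leaving out each array or both arrays numbered 1, 3 other scalings, a filter on dim probe sets, eBayes with trend and robust, weighted arrays, averaging the probe sets of each gene (wider pathway only), and leaving out probe sets that may cross-hybridise.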

Additional observations from a re-analysis of the deposited data

How the results depend on the processing

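The count of members called kept within 1 probe set. It was 4 to 5 higher and 2 lower when arrays were left out. It was 5 higher and 2 lower under the replicate block, 3 scalings, the dim filter, trend and robust, and array weights. The dim filter tested 9 of the 13 member probe sets. Leaving out probe sets that may cross-hybridise could not change the counts of members, as 0 of the 13 have such a suffix. Averaging the probe sets of a gene was run for the wider pathway only. The block changed no call of a member, and it gave 9 higher and 16 lower genes of the wider pathway, against 7 and 13 without it. Leaving out arrays gave 6 to 8 higher and 10 to 15 lower wider pathway genes. Over all probe sets, leaving out arrays gave 2427 to 3424 higher and 2668 to 3771 lower, against 3574 and 4004. The lowest count of lower probe sets, 2668, came without tamoxifen array 2, in a fit with fewer samples. Of the members' calls, those of Jag1, Hes1, both Notch1 probe sets and the brighter 2 of Rbpj held under all 14 alternatives run for each, and the dimmest Rbpj probe set lost its call under 4 of 14. Values of Notch2, Notch3, Jag2 and Dll1 are low, so small changes of these may be understated. The block was added for the cell type markers after seeing the data: smooth muscle and pericyte markers went to 1 higher and 1 lower with it, against 0 and 0 without, and the other marker lists changed by at most 1 call.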
